A study of Homo sapiens with 4 samples.

Results

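Transcript levels were examined for 10 genes of the insulin and insulin-like growth factor (IGF) system: the receptors IGF1R, INSR and IGF2R, the insulin receptor substrates IRS1 and IRS2, and the IGF-binding proteins IGFBP2, IGFBP3, IGFBP4, IGFBP5 and IGFBP6. The genes were taken by symbol, and each of the 10 matched 1 Ensembl identifier among the 26518 genes measured. The study sequenced RNA of MDA-MB-468, an established human line from a triple-negative breast cancer. The cells carried either a pGIPZ lentiviral control vector (shControl, 2 libraries) or the same kind of vector with a short hairpin RNA against SASH1 (shSASH1, 2 libraries). Cells of both groups were selected with puromycin as stable lines and grown in DMEM with 5% fetal bovine serum. The labels do not say how many clones or hairpins stand behind a group, nor whether its 2 libraries came from separate cultures, so p-values here reflect the scatter of these libraries alone, and that scatter may be technical.

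IGF1 and IGF2 are secreted growth factors that bind the IGF-1 receptor, a receptor tyrosine kinase, while insulin acts mainly through the closely related insulin receptor. Activated receptors phosphorylate IRS1 and IRS2, scaffold proteins that recruit PI3-kinase and start AKT and mTOR signaling. The mannose-6-phosphate receptor encoded by IGF2R has no kinase; it clears IGF2 and carries lysosomal enzymes. IGFBPs are secreted proteins that hold IGFs in the extracellular space, and proteases that cut them set the IGFs free. In breast epithelial cells this system is known for its part in growth and survival.

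Values were TPM, the abundance of a transcript per length relative to all others in its library. Library depth, rebuilt from the TPM values, lay between 19566651 and 24383873 reads. SASH1, the gene aimed at and a signaling scaffold, measured 15.0 and 13.0 TPM in shControl and 3.65 and 4.01 TPM in shSASH1, a 3.66-fold lower mean (log2 change -1.63 ± 0.13 SE, limma adjusted p = 0.00391). Across all tested genes the shSASH1 pair varied more than the shControl pair, with a median SD of 0.126 against 0.0507 on the log2 scale. Epithelial markers were abundant, summing to 4684 and 4937 TPM in shControl and to 4262 and 3805 TPM in shSASH1. The basal breast markers summed to 2750.3 and 2643 TPM in shControl and to 4016 and 3211 TPM in shSASH1. Only EGFR of these 5 had a higher mean in shSASH1 (2197 against 1122 TPM), while KRT5, KRT14, KRT17 and TP63 had lower means there. For KRT5 and KRT17, shSASH1 replicate 1 lay above both controls and only replicate 2 was low. The fall of KRT14 had a limma adjusted p of 0.0795, and TP63 rested on 1 to 17 rebuilt reads. Of the hormone receptors, ESR1 was listed at 2.29 to 3.64 TPM and the progesterone and androgen receptors were at or near 0. Leukocyte markers summed to at most 0.276 TPM. Among 6 fibroblast markers COL1A2 and LUM were listed at 0 in all libraries, and the list's sum of 6.34 and 7.12 TPM in shControl and 9.18 and 11 TPM in shSASH1 came almost wholly from COL1A1. The part of these marker differences in the results was not tested, and fewer cells of a type cannot be told apart from less RNA per cell.

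All 10 genes reached the mean of 1 TPM set for testing. IRS2 rose, and IGFBP4 and IGF2R fell, in shSASH1 against shControl, while the other 7 did not pass an adjusted p of 0.05 (limma on log2(TPM + 1), Benjamini-Hochberg over 14458 tested genes). That is 1 of 10 higher and 2 of 10 lower, beside 18.8% of tested genes higher and 13.3% lower, or 32.0% in either direction. The library values of 8 of the 10 genes did not overlap between the groups, and this held for 73.6% of tested genes. Both shares of the 10 genes are close to these backgrounds, so neither is a result about this set of genes. The median log2 change of the 10 genes was -0.26, beside 0.06 for all tested genes. Where a library is left out below, its group rests on 1 library, and the spread comes from the other group alone, moderated by limma. Without an shSASH1 library that spread is the smaller one of the shControl pair, and more of the whole table was called (4543 higher and 3185 lower without replicate 1, 3276 and 2612 without replicate 2), so a call gained there is not support for a change.

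**Figure D1:**
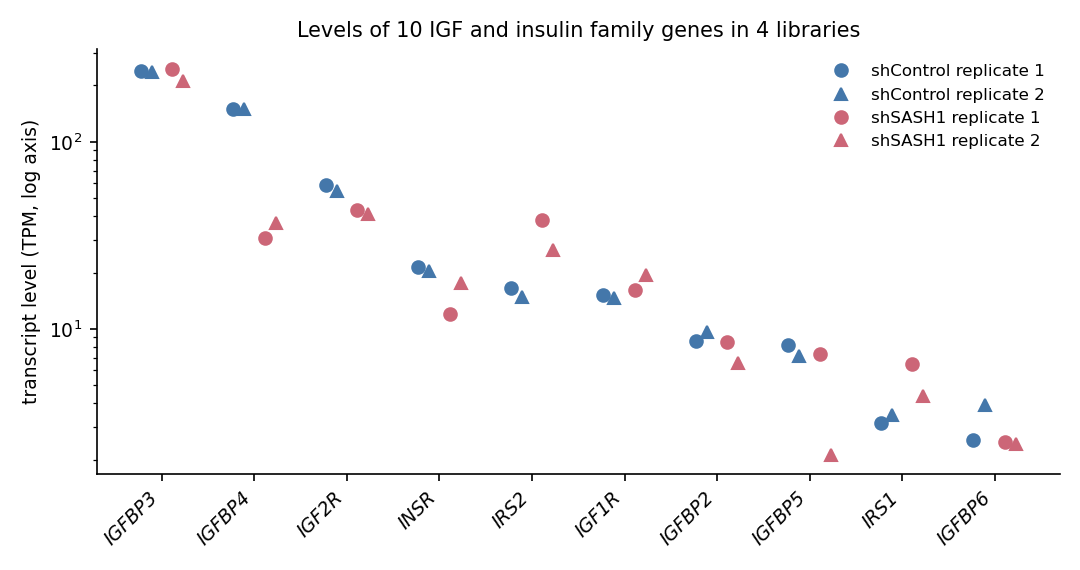
Transcript level in TPM on a log axis for each of the 10 genes, ordered by their mean in shControl, with 1 point per library (blue for shControl, red for shSASH1, circles for replicate 1 and triangles for replicate 2). IGFBP3 lies highest in every library at 212 to 246 TPM, and IGFBP4 drops from about 150.2 TPM in shControl to 30.5 and 36.6 TPM in shSASH1.

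The levels spanned a wide range. In shControl the order from high to low was IGFBP3, IGFBP4, IGF2R and INSR, then IRS2 and IGF1R, whose library values overlapped, then IGFBP2 and IGFBP5, then IRS1 and IGFBP6, which overlapped again. In shSASH1 IGFBP3 stayed first and IGF2R came second. IGFBP4 and IRS2 overlapped there, as did IGF1R and INSR. IGFBP2, IRS1 and IGFBP6 followed in this order without overlap, and the spread of IGFBP5 reached from IGFBP2 to below IGFBP6. The plot of levels by library shows these positions.

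IGFBP4, which binds both IGFs and is known mainly as an inhibitor of their action, fell the most of the 10 genes. Its gene (ENSG00000141753, hg38 chromosome 17, 40443461 to 40457731, plus strand) was measured at 150.3 and 150.1 TPM in shControl and at 30.5 and 36.6 TPM in shSASH1. These values rest on 1940, 2268, 440 and 422 rebuilt reads, in the same order. The shControl libraries were nearly equal, and both shSASH1 libraries lay far below them without overlap. The mean went from 150.2 ± 0.123 to 33.6 ± 4.35 TPM (SD, n = 2 each), a 4.48-fold difference and a log2 change of -2.14 ± 0.10 (SE, 95% interval -2.41 to -1.86, limma adjusted p = 0.00198). By size of fall it ranked 113 of 14458 tested genes. With 1 shControl library left out, the fall was no longer past the threshold (adjusted p = 0.0874 and 0.0876), and under these 2 settings 0 genes of the whole table were called by limma, while 3446 and 3326 had an unadjusted p under 0.05.

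The 250 bases upstream of the transcription start that RefSeq gives on GRCh38.p14 are shown for the 3 genes that changed, to set their promoters side by side. Capitals mark the GC box GGGCGG on either strand and, in IGF2R, also the palindrome TCACGTGA, the core of the CLEAR element found at lysosomal genes. The windows are chr17:40443200-40443449 for IGFBP4 and chr6:159968832-159969081 for IGF2R, both on the plus strand, and chr13:109786584-109786833 on the minus strand for IRS2.
IGFBP4: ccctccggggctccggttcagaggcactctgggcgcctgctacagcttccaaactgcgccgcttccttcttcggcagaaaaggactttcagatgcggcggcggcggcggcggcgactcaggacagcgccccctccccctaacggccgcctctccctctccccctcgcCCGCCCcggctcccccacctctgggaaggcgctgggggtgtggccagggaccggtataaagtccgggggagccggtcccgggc
IGF2R: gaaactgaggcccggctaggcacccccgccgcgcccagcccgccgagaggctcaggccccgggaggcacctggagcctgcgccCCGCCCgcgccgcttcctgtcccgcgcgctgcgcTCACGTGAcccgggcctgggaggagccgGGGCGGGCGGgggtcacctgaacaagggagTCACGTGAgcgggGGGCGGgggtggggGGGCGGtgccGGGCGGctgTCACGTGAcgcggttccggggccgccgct
IRS2: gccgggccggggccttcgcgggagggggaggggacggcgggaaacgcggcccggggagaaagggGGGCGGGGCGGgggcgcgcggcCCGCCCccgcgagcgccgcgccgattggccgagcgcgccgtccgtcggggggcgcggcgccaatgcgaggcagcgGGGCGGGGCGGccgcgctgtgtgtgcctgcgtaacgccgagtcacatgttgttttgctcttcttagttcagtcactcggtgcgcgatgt

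The base composition of these windows was high in G and C, at 71.6% for IGFBP4, 76.4% for IRS2 and 79.2% for IGF2R, where the median of all RefSeq windows was 58%. IGF2R held 6 GC box matches, IRS2 held 5 and IGFBP4 held 1, overlapping matches included, and no other searched motif besides TCACGTGA was found in the 3. Motifs were searched on both strands in 12 windows of the 10 genes, each of the same upstream length as those shown. Bases after the start were not searched. GGGCGG occurred in 10 of these 12 and in 42.5% of 34943 windows. The TEAD core GGAATG occurred in 3, those of IRS1, IGFBP5 and IGFBP6 (11.9% of all windows), and the FOXO core GTAAACA in 1, that of IGFBP6 (2.98%). The AP-1 motif TGACTCA was in 0 of the 12 (4.22% of all windows), which says only that these letters are not there. TCACGTGA was searched after the IGF2R sequence had been seen; it matched 3 times in IGF2R and in 0.856% of all windows. A match is a description of the letters and not a bound site.

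IGFBP3, the main carrier of IGFs in blood, was the most abundant of the 10 genes and above 96.2% of tested genes in level. It measured 239 and 237 TPM in shControl and 246 and 212 TPM in shSASH1 (ENSG00000146674, chromosome 7, 45912245 to 45921874, minus strand). The groups overlapped, since 1 shSASH1 library lay above and the other below both controls. Its log2 change was -0.060 ± 0.09 (SE, 95% interval -0.29 to 0.17, limma adjusted p = 0.629), and it was -0.17 without shSASH1 replicate 1 (adjusted p = 0.0238, with the spread from the controls alone) against 0.048 without shSASH1 replicate 2.

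IGFBP2 and IGFBP5 lie next to each other on chromosome 2 with 7668 bases between them and are read from opposite strands. IGFBP2 (ENSG00000115457, 216632828 to 216664436, plus strand) measured 8.63 and 9.68 TPM in shControl and 8.55 and 6.56 TPM in shSASH1, so the upper shSASH1 library came just below the lower control. The log2 change of IGFBP2 was -0.25 ± 0.16 (SE, 95% interval -0.69 to 0.18, limma adjusted p = 0.281), and it ran from -0.42 without shSASH1 replicate 1 to -0.087 without replicate 2. IGFBP5 (ENSG00000115461, 216672105 to 216695525, minus strand), which binds extracellular matrix as well as IGFs, measured 8.15 and 7.16 TPM in shControl and 7.33 and 2.13 TPM in shSASH1. Only shSASH1 replicate 2 was low, with 72 rebuilt reads beside 308 to 317 in the other 3 libraries, and shSASH1 replicate 1 lay between the controls. IGFBP5 had the widest interval of the 10 genes, a log2 change of -0.76 ± 0.49 (SE, 95% interval -2.05 to 0.53, limma adjusted p = 0.284). The low library decided this value: the log2 change was -1.47 without shSASH1 replicate 1 (adjusted p = 0.0079, with the spread from the controls alone) and -0.053 without shSASH1 replicate 2 (adjusted p = 0.752).

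IGFBP6, which prefers IGF2 over IGF1, had the lowest mean of the 10 genes in shControl, overlapping IRS1, at 2.53 and 3.90 TPM, and measured 2.49 and 2.41 TPM in shSASH1 (ENSG00000167779, chromosome 12, 53097436 to 53102345, plus strand). It rested on 17 to 36 rebuilt reads per library. Both shSASH1 libraries were just below the lower control, and the log2 change of -0.27 ± 0.22 (SE, 95% interval -0.86 to 0.32) had a limma adjusted p of 0.395. It was -0.50 without shControl replicate 1 and -0.034 without shControl replicate 2.

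Summed over IGFBP2 to IGFBP6, the binding-protein transcripts came to 409 and 408 TPM in shControl and to 295 and 259.6 TPM in shSASH1. Both shSASH1 sums were lower, and the means of 408 ± 0.721 and 277 ± 25.1 TPM (SD, n = 2 each) differed 1.47-fold. The exact two-sided permutation p was 0.333, the smallest that 2 against 2 libraries can give. Without IGFBP4 the sums were 259 and 258 TPM against 265 and 223 TPM, and the groups overlapped. IGFBP4 made up 36.8% of the sum in each shControl library and 10.3% and 14.1% in the shSASH1 libraries. IGFBP3 took 58.5% and 58.1% in shControl and 83.4% and 81.6% in shSASH1, and these shares did not overlap either. The IGFBP3 to IGFBP4 ratio was thus 1.59 and 1.58 in shControl and 8.08 and 5.78 in shSASH1.

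**Figure D2:**
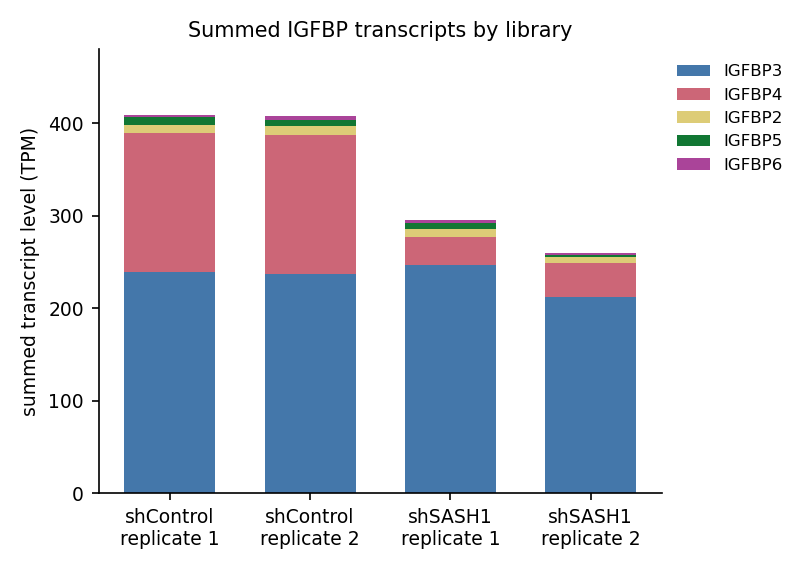
Stacked bars of the TPM of IGFBP2, IGFBP3, IGFBP4, IGFBP5 and IGFBP6 in each of the 4 libraries, 1 bar per library with the vertical axis from 0. The IGFBP4 segment shrinks from 150.3 and 150.1 TPM to 30.5 and 36.6 TPM, while the IGFBP3 segment stays between 212 and 246 TPM.

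Among the receptors, IGF2R was the most abundant and the only one past the threshold. It measured 58.8 and 54.4 TPM in shControl and 43.1 and 41.0 TPM in shSASH1 (ENSG00000197081, chromosome 6, 159969099 to 160113507, plus strand). Both shSASH1 libraries were below both controls. The mean fell from 56.6 ± 3.10 to 42.0 ± 1.501 TPM (SD, n = 2 each), a 1.35-fold difference and a log2 change of -0.42 ± 0.07 (SE, 95% interval -0.62 to -0.22, limma adjusted p = 0.0186). The call was lost without either shControl library (adjusted p = 0.209 and 0.160). IGF2R also lies 11.4 Mb from SASH1, in a stretch where other genes were lower too: of 58 tested genes within 10 Mb, 45 were below 0, 20 were called lower and 3 higher, and their median log2 change was -0.36. Relative to that median IGF2R changed by -0.056 (adjusted p = 0.591), so its call ended with this centring. Within its span lie the antisense transcript AIRN, at 0 to 0.209 TPM, and the pseudogene CHP1P2, at 5.18 to 7.68 TPM, and the use of strand in counting is not stated.

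INSR, the insulin receptor, measured 21.3 and 20.3 TPM in shControl and 12.1 and 17.6 TPM in shSASH1 (ENSG00000171105, chromosome 19, 7112255 to 7294034, minus strand). Both shSASH1 libraries were below the controls, but they lay far apart. The log2 change of -0.48 ± 0.19 (SE, 95% interval -0.98 to 0.02) did not pass the threshold (limma adjusted p = 0.119). It did with voom on rebuilt reads (-0.60, adjusted p = 0.0368). The value rested on which shSASH1 library was kept: it was -0.74 without replicate 2 (adjusted p = 0.0120, with the spread from the controls alone) and -0.23 without replicate 1.

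IGF1R, the IGF-1 receptor, measured 15.1 and 14.6 TPM in shControl and 16.2 and 19.4 TPM in shSASH1 (ENSG00000140443, chromosome 15, 98648539 to 98964530, plus strand). Both shSASH1 libraries were above the controls, by little in replicate 1. Its log2 change of 0.24 ± 0.12 (SE, 95% interval -0.07 to 0.56) had a limma adjusted p of 0.178. Without shSASH1 replicate 1 the change was 0.37 (adjusted p = 0.0293, with the spread from the controls alone), and without replicate 2 it was 0.12. The microRNA gene MIR4714 lies in the same span and was listed at 2.21, 0, 0 and 2.48 TPM in shControl 1 and 2 and shSASH1 1 and 2.

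The balance of the 2 kinase receptors can be read within each library. INSR over IGF1R was 1.41 and 1.40 in shControl and 0.745 and 0.908 in shSASH1, so INSR transcripts outnumbered those of IGF1R per length in both controls and in neither shSASH1 library. The mean ratio was 1.40 ± 0.0105 against 0.827 ± 0.115 (SD, n = 2 each, exact two-sided permutation p = 0.333, the smallest possible). Their sum, 36.4 and 34.9 TPM in shControl and 28.3 and 37.1 TPM in shSASH1, overlapped between the groups. IGF2R over IGF1R was 3.89 and 3.74 in shControl and 2.66 and 2.11 in shSASH1.

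**Figure D3:**
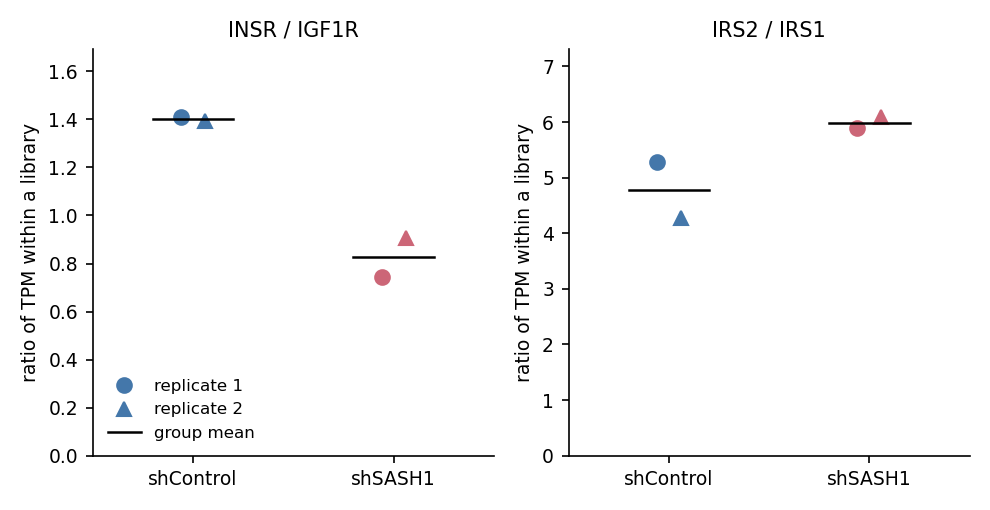
Ratio of TPM within each library for INSR over IGF1R (left) and IRS2 over IRS1 (right), both axes from 0, circles for replicate 1, triangles for replicate 2 and a bar at the group mean. INSR over IGF1R is 1.41 and 1.40 in shControl and 0.745 and 0.908 in shSASH1, while IRS2 over IRS1 lies between 4.27 and 6.09 in all 4 libraries.

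IRS2, the substrate best known for its part in insulin action in liver and in the motility of breast cancer cells, was the 1 gene of the 10 called higher. It measured 16.6 and 14.8 TPM in shControl and 38.2 and 26.5 TPM in shSASH1 (ENSG00000185950, chromosome 13, 109752698 to 109786568, minus strand). Both shSASH1 libraries lay above both controls, replicate 1 more so. The mean went from 15.7 ± 1.25 to 32.4 ± 8.28 TPM (SD, n = 2 each), 2.06-fold higher, with a log2 change of 0.98 ± 0.19 (SE, 95% interval 0.47 to 1.49, limma adjusted p = 0.0238). All 49 tested genes within 10 Mb had a lower log2 change than IRS2, and their median was -0.08. Without shControl replicate 1 or 2 the adjusted p was 0.164 and 0.1996.

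IRS1, the other main substrate, measured 3.13 and 3.47 TPM in shControl and 6.49 and 4.35 TPM in shSASH1 (ENSG00000169047, chromosome 2, 226731317 to 226799759, minus strand). Like IRS2 it was above the controls in both shSASH1 libraries and highest in replicate 1. Its log2 change of 0.56 ± 0.22 (SE, 95% interval -0.01 to 1.13) did not pass the threshold (limma adjusted p = 0.112). Without shSASH1 replicate 2 it was 0.80 (adjusted p = 0.0252, with the spread from the controls alone), and without replicate 1 it was 0.32. The IRS1 region was higher as a whole: 91 of 106 tested genes within 10 Mb were above 0 and 59 were called higher, with a median of 0.59. Relative to that median IRS1 changed by -0.036 (adjusted p = 0.919). IRS2 over IRS1 was 5.29 and 4.27 in shControl and 5.89 and 6.09 in shSASH1. Together IRS1 and IRS2 came to 19.7 and 18.3 TPM in shControl and to 44.7 and 30.9 TPM in shSASH1, a 1.99-fold higher mean.

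The surroundings of the 10 genes thus differed, and the plot of changes beside their neighbours shows each pair. IGFBP2 and IGFBP5 also lie in a stretch of chromosome 2 that was higher in shSASH1: of their 85 tested neighbours 71 were above 0 and 42 were called higher, with a median log2 change of 0.49. Against that median IGFBP2 changed by -0.75, which passed the threshold (limma adjusted p = 0.0390), and IGFBP5 by -1.25 (limma adjusted p = 0.126). The median is subtracted as a fixed value, so a p after centring leaves out the spread among the neighbours. Of these neighbours 9.41% had a lower change than IGFBP2 and 2.35% a lower change than IGFBP5. Around IGFBP4 the median of 285 neighbours was -0.01, and 1.05% of them had a lower change than IGFBP4. For IGF1R, INSR, IGFBP3, IGFBP6 and IRS2 the neighbour medians lay between -0.08 and 0.06. Whether DNA copy number moved with these stretches was not tested.

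**Figure D4:**
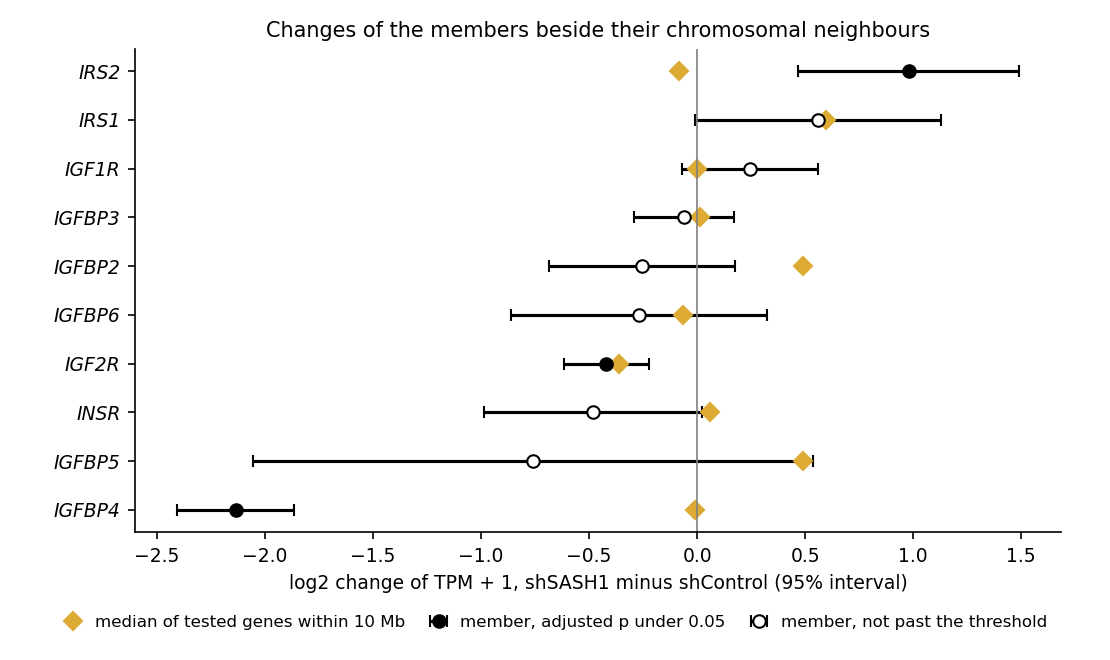
Log2 change of TPM + 1 in shSASH1 minus shControl with its 95% interval for each of the 10 genes (filled circles past an adjusted p of 0.05, open circles not), and the median change of the tested genes within 10 Mb (diamonds). IGFBP4 at -2.14 and IRS2 at 0.98 stand apart from their neighbours' medians of -0.01 and -0.08, whereas IGF2R at -0.42 and IRS1 at 0.56 lie by medians of -0.36 and 0.59.

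The protein-coding genes whose pattern over the 4 libraries came nearest to each of the largest changes were found by Euclidean distance in log2(TPM + 1) after each gene's mean was subtracted. This is a description over 4 libraries. Nearest to IGFBP4 were COL4A1, a basement membrane collagen (distance 0.0917, with 4.33 and 4.0035 TPM in shControl and 0.0831 and 0.221 TPM in shSASH1), RGCC (0.148) and UNC13A (0.151). COL4A1 and UNC13A reached the level for testing only through shControl. UNC13A measured 4.50 and 3.96 TPM in shControl and 0.191 and 0.358 TPM in shSASH1. In TPM both fell by a larger fold than IGFBP4. They come near it on the log2(TPM + 1) scale because the added 1 TPM shrinks the change of low genes. Nearest to IRS2 were FOSL1, an AP-1 subunit (distance 0.0378, with 36.7 and 32.0 TPM in shControl and 80.4 and 57.4 TPM in shSASH1), the chloride channel ANO1 (0.0458) and IFFO2 (0.0693).

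Other genes of the system were read from 6 lists. Of the ligands, other receptors and other binding proteins, 12 of 13 listed genes were in the table and 4 were abundant enough to test: 1 was called higher, 0 lower, and 3 did not pass, with a median log2 change of 0.17. That is 25% called, beside 32.0% of all tested genes. IGF1 had 0 TPM in either control, and 0.0375 and 0.0940 TPM in shSASH1 from 2 and 4 rebuilt reads. IGF2, whose span overlaps INS-IGF2, and INS were listed at 0 in all 4 libraries. IGFBPL1, an IGFBP-like protein, rose from 11.3 and 9.35 TPM to 21.2 and 18.3 TPM (log2 change 0.87, limma adjusted p = 0.0146). The median of its chromosomal neighbours was 1.32, and against that median IGFBPL1 changed by -0.45 (adjusted p = 0.0921). NUCB1, which is not named as an IGF ligand, receptor or IGFBP, was placed on this list and is among its 4 tested genes. The most abundant of the list, NUCB1 measured 70.2 and 71.4 TPM in shControl and 67.0 and 70.1 TPM in shSASH1.

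Of the proteases that cut IGFBPs, and their inhibitors, 10 of 19 listed genes were tested, and 2 were called higher, 3 lower and 5 neither. That is 50% of 10 genes called, beside 32.0% of all tested genes, and the list's median log2 change was 0.23. The count called higher was 4 without either shSASH1 library, and 1 with no filter, with the length and GC correction or with no variance trend. HTRA1, a serine protease that can cleave IGFBPs, fell from 11.9 and 11.5 TPM to 2.10 and 1.61 TPM (log2 change -2.16, limma adjusted p = 0.00313). MMP2, a matrix metalloprotease, fell from 1.88 and 2.41 TPM to 0.194 and 0.325 TPM (-1.32, adjusted p = 0.0189), and it reached the level for testing only through shControl. The lysosomal protease CTSD fell from 186 and 200.01 TPM to 86.7 and 78.8 TPM (-1.21, adjusted p = 0.0029). CTSD was the list's most abundant gene in shControl but not in shSASH1. ADAM9, a membrane metalloprotease, rose from 53.5 and 54.9 TPM to 99.8 and 96.7 TPM (0.85, adjusted p = 0.00308). The groups did not overlap in these 4 called genes, as in 73.6% of all tested genes. The 4 were picked for large called changes, so this is no further support.

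Among receptor adaptors and phosphatases, 29 of 31 listed genes were tested: 10 were called higher, 1 lower and 18 neither, with a median log2 change of 0.32. That is 37.9% called, beside 32.0% of all tested genes (18.8% higher and 13.3% lower). SOCS2, a feedback inhibitor of cytokine and growth hormone signaling, rose from 0.395 and 0.427 TPM to 4.82 and 3.803 TPM (log2 change 1.91, limma adjusted p = 0.00642), and it reached the level for testing only through shSASH1. CAV1, the caveolae coat protein, rose from 54.8 and 50.3 TPM to 147 and 107 TPM (1.24, adjusted p = 0.00937). SOS1, the exchange factor that loads RAS, rose from 56.7 and 52.0 TPM to 88.5 and 122 TPM (0.93, adjusted p = 0.0197). The docking protein GAB1 went from 6.10 and 6.29 TPM to 10.6 and 10.8 TPM (0.70, adjusted p = 0.0139). The 1 gene called lower was RACK1, a ribosomal scaffold and the most abundant of the list, at 1020.5 and 1042.5 TPM in shControl and 778 and 724 TPM in shSASH1 (-0.46, adjusted p = 0.0114). RACK1 changed by -0.15 against its neighbours' median (adjusted p = 0.167), and its call ended there. With centring on neighbours, 7 genes of this list were called higher in place of 10. CBLB, NEDD4 and PTPRF lost their calls, with changes of 0.52, 0.16 and 0.050 against their medians (limma adjusted p = 0.0647, 0.214 and 0.519). Over all tested genes the count called higher was 1882 with this centring and 2712 in the main fit. Without shSASH1 replicate 1 more genes were called higher, both in this list and over all tested genes. That rise is therefore not a result about this list.

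Of the PI3-kinase, AKT and mTOR list, 34 of 37 listed genes were tested, with 8 called higher, 4 lower and 22 neither, and a median log2 change of 0.05. That is 35.3% called, beside 32.0% of all tested genes. INPP4B, a lipid phosphatase that acts against PI3-kinase output, rose from 4.51 and 3.50 TPM to 17.5 and 12.4 TPM (log2 change 1.66, limma adjusted p = 0.00907). RICTOR, a subunit of mTOR complex 2, rose from 14.4 and 12.6 TPM to 28.5 and 34.0 TPM (1.15, adjusted p = 0.00669), and DEPTOR, an mTOR-binding inhibitor, fell from 10.5 and 11.3 TPM to 4.87 and 4.43 TPM (-1.07, adjusted p = 0.00706). The neighbour medians of RICTOR and DEPTOR were 0.53 and -0.33. Against them RICTOR changed by 0.62 and DEPTOR by -0.75 (limma adjusted p = 0.0343 and 0.0188). RPS6, the most abundant gene of the list, measured 989 and 987 TPM in shControl and 908 and 873 TPM in shSASH1 (-0.15, adjusted p = 0.118). With voom on rebuilt reads 8 genes of this list were called lower in place of 4. The whole table moved the same way, with 2811 genes called lower in place of 1918.

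The FOXO list holds FOXO transcription factors, which AKT keeps out of the nucleus, and genes known to respond to them. Of 25 listed genes 21 were tested, with 6 called higher, 2 lower and 13 neither, and a median log2 change of 0.15. That is 38.1% called, again beside 32.0%. PDK4, a kinase that shuts off pyruvate dehydrogenase, rose from 1.16 and 1.22 TPM to 15.9 and 9.16 TPM (log2 change 2.58, limma adjusted p = 0.00633). KLF6 rose from 25.5 and 24.1 TPM to 77.3 and 47.4 TPM (1.26, adjusted p = 0.0223), and GADD45A, a growth arrest and DNA damage protein, from 186 and 188 TPM to 406 and 431 TPM (1.16, adjusted p = 0.0021). The neighbours of GADD45A had a median of 0.48, and against it GADD45A changed by 0.68 (limma adjusted p = 0.00636). CITED2, a transcriptional coregulator, fell from 94.1 and 97.7 TPM to 54.0 and 34.2 TPM (-1.14, adjusted p = 0.0236). TRIB3, the most abundant of the list, measured 505 and 499.9 TPM in shControl and 426 and 479 TPM in shSASH1. The count called lower was 4 with quantile normalization, 5 with voom, 1 with centring on neighbours and 7 without shSASH1 replicate 2.

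The IGF2 mRNA-binding proteins hold on to IGF2 and other messages in the cytoplasm, and 2 of the 3 were tested. That is 100% of only 2 genes called, beside 32.0% of all tested genes (18.8% higher), too few to describe the list. Both rose: IGF2BP2 from 25.8 and 26.2 TPM to 39.6 and 41.1 TPM (log2 change 0.62, limma adjusted p = 0.00684) and IGF2BP3 from 8.09 and 8.21 TPM to 14.3 and 16.8 TPM (0.85, adjusted p = 0.0112). IGF2BP1, too low to test, went the other way, at 0.195 and 0.181 TPM in shControl and 0.0316 and 0.0198 TPM in shSASH1, from 10, 11, 2 and 1 rebuilt reads.

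**Figure D5:**
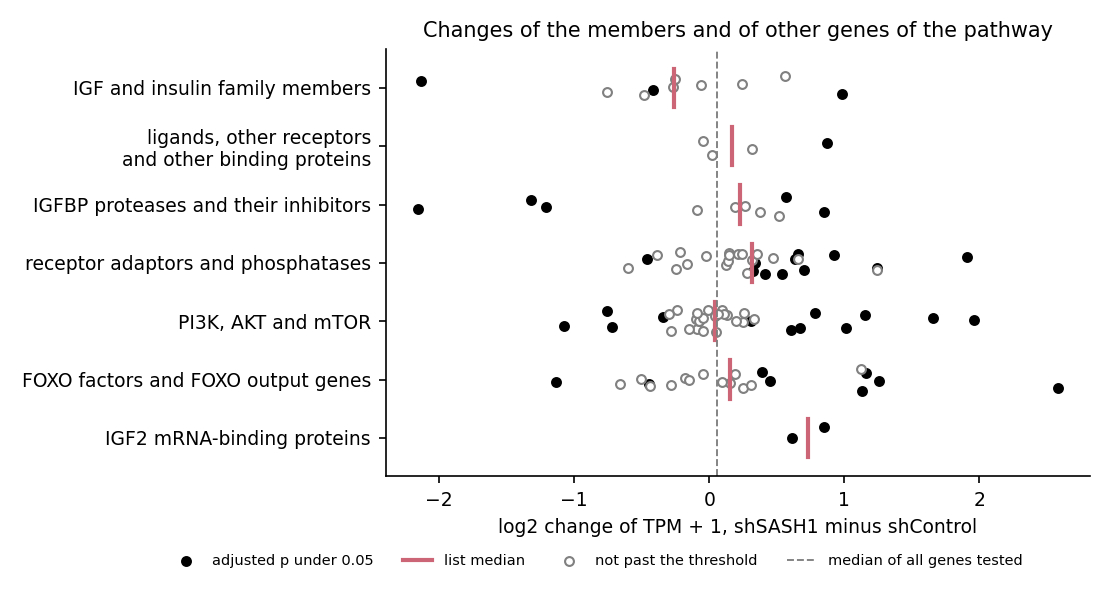
Log2 change of TPM + 1 in shSASH1 minus shControl for each tested gene of the 10-gene set and of the 6 other lists (filled points past an adjusted p of 0.05, open points not, vertical bars at list medians, dashed line at the median of all tested genes, 0.06; vertical scatter within a list has no meaning). Points lie on either side of 0 in each list but the IGF2 mRNA-binding proteins, and list medians run from -0.26 in the 10 genes to 0.73 in that list.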

How the data were processed

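RNA-seq was done on 4 libraries, whose titles put 2 in the shControl group and 2 in the shSASH1 group. Per Ensembl gene, the authors deposited TPM values. STAR, DESeq2 and hg38 are named in the submitters' processing notes. For the counter, the annotation, the gene lengths and strand handling, this is not given in the sources used here. All 26518 identifiers were found in GENCODE 29 (hg38), which gave symbols and 1-based positions.

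Testing took the 14458 genes whose mean reached 1 TPM. On log2(TPM + 1), limma 3.58.1 (R 4.3.3) was run two-sided with a variance trend and no replicate block, at a Benjamini-Hochberg adjusted p of 0.05. Fold changes on that scale understate the change of low genes, and TPM is relative, so abundant genes that rise lower the others. The test was tried first on simulated data with the same spread in both groups. The shSASH1 pair varied more than the shControl pair here, and that trial does not cover this case. Reads were rebuilt from TPM and GENCODE exon length after each library was scaled so that its low values became whole numbers. Between 88.6% and 89.2% of values up to 20 reads lay within 0.05 of one. The totals are estimates, as the gene lengths behind the deposited TPM are not given, and they carry counting error as well. Ratios and sums were compared with an exact permutation test.

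The 10 genes, the lists and the markers were chosen with earlier results of these data known. Named in the text are the 10 genes, SASH1, IGF1, IGF2, up to 4 called genes of each list with the largest change, each list's most abundant gene and the 3 nearest patterns of IGFBP4 and IRS2; some genes this rule names are not reported here. INS, IGF2BP1, 9 single markers and the genes whose spans overlap IGF1R, IGF2R or IGF2 were named after their values were seen. IRS4, SGK3 and SOD2 are not analysed here. Promoter windows are from RefSeq (GRCh38.p14), with a match for all 10 genes.

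Alternatives were quantile normalization, median-of-ratios scaling, a pseudocount of 0.1 TPM, a filter at 5 TPM or none, a length and GC correction, centring on genes within 10 Mb, voom on rebuilt reads, no variance trend, a replicate block and leaving out each library. Tables and plots were made in Python 3.11.15 (scipy 1.17.1, numpy 2.4.6, pandas 2.3.3, matplotlib 3.10.9).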

Additional observations from a re-analysis of the deposited data

How the results depend on the processing

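Over 14 other settings the 10 genes gave 138 values, of which 122 kept direction and side of the threshold, 7 passed it newly, 7 lost it and 2 changed sign. Of all tested genes 2712 were called higher and 1918 lower, a share of 58.6% higher; it was 48.4% with quantile normalization (2280 and 2434) and 47.4% with voom on rebuilt reads (2536 and 2811). Leaving out each library in turn gave 0 to 4543 genes higher and 0 to 3185 lower, and of the 10 genes 0 to 2 higher and 0 to 4 lower. The 0 counts came without shControl replicate 1 or 2, where the lone control is taken to vary like shSASH1; a lone shSASH1 library is taken to vary like shControl. Over these omissions the log2 change ranged from 0.12 to 0.37 for IGF1R, -0.74 to -0.23 for INSR, -0.47 to -0.36 for IGF2R, 0.32 to 0.80 for IRS1, 0.72 to 1.24 for IRS2, -0.17 to 0.048 for IGFBP3, -2.27 to -2.01 for IGFBP4, -1.47 to -0.053 for IGFBP5, -0.42 to -0.087 for IGFBP2 and -0.50 to -0.034 for IGFBP6. INSR was -0.60 with voom, and centring on neighbours gave -0.056 for IGF2R, -0.036 for IRS1 and -0.75 for IGFBP2. The cause of these shifts was not tested. Libraries of the same replicate number showed no strong shared shift (correlation of replicate 1 deviations -0.0322). This does not tell whether they were prepared as pairs, which the labels do not say. The replicate block, with IRS2 at 0.98 and a limma adjusted p of 0.00964, changed no call of the 10 genes. IRS1 and IGFBP6 have no value with the filter at 5 TPM. Depth limits IGFBP6 most, at 17 to 36 reads.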
